A study of Mus musculus with 8 samples.

Results

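Chemokines are small secreted proteins that guide the movement of leukocytes, and they are named for the spacing of the cysteines near their start, as CC, CXC, XC and CX3C ligands. Their receptors are G protein-coupled receptors of the cell surface, named after the ligand class they bind. In mammary tumours such ligands come from tumour epithelium, fibroblasts, endothelium and the leukocytes themselves, and they are known for drawing monocytes, neutrophils and T cells into the tissue. The genes described here are those whose symbol in the array's annotation is that of a numbered chemokine or chemokine receptor, taken only from probes annotated to a single symbol. This gave 49 genes of 18193 with such probes, 33 ligands and 16 receptors, measured by 77 probes of 45037. A further 4 probes carry several symbols and were left out.

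The samples were 8 pieces of mammary tissue, called tumours here after the title, from female mice. Their genotype was MMTV-PyMT and their strain was given as FVB/N-Tg(MMTV-PyVT)634Mul/J, in which a mammary tumour virus promoter drives polyoma middle T antigen in the mammary epithelium. Both groups of 4 therefore carry this transgene. The vehicle group is labelled vehicle-treated with no composition given. The other group was gavaged with SKI-606 at 100 mg/kg, in a suspension that held methocellulose at 0.5% and Tween 80 at 0.4%. SKI-606, or bosutinib, blocks kinases of the Src and Abl families, and the question that the title puts is whether it makes such tumours differentiate. The age of the mice and the length of treatment are not stated in the sources used. The protocols speak of RNA from each mouse without naming the animals, so the p-values below cover the spread between these 8 samples, which may in part be technical.

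Each RNA was hybridised to its own Affymetrix array, and precision is limited by there being 4 arrays per group. Signals given below were recovered from the deposited ratios and quantile normalized between arrays, so that they have no absolute unit. The level of 1 gene is not set against that of another, except within summed signals, where bright probes weigh most. The recovered array medians lay between 15 and 23, with 23 in vehicle sample 3 and at most 18 in the others. A gene is called measured here if its mean signal over the 8 arrays was at least 50, dim from 20 to 50, and near the floor under 20. Of the 49 genes, 16 were measured, 12 were dim and 21 lay near the floor. Signals are listed in the order of samples 1 to 4 of each group. Fold changes are SKI-606 minus vehicle on the scale of log2(signal + 16), given ± SE from limma over all probes with 4 samples in each group, and this scale understates changes of dim genes.

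The signals fitted an epithelial tissue, as those of Krt8 were 5924, 5689, 5324 and 6080.2 in the vehicle group and 6317, 5671, 5621 and 4854 in the SKI-606 group. Epcam, the epithelial adhesion molecule, lay between 2970.5 and 3969 over all samples. Csn3, from the list of mammary epithelium markers, lay between 10692 and 12242. Some samples stood apart. The summed signal of 12 squamous and hair keratin genes was 257, 251, 11271 and 684 without SKI-606 and 18449, 236, 236 and 20395 with it, so that vehicle sample 3 and SKI-606 samples 1 and 4 were far above the rest. The sum of 8 skeletal muscle genes ran from 107 to 18693 in vehicle and 79.1 to 13109.7 in SKI-606 samples. Where the difference of a gene rests on the 3 samples of high squamous signal, its value without them (3 vehicle and 2 SKI-606 tumours) is added.

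In the tumours of SKI-606 mice most chemokine ligand genes had higher group means than in vehicle tumours, and receptor genes were more mixed. Over the 49 genes, 38 had a log2 fold change above 0 (77.6%), where 47.2% of all genes did. None passed the test after adjustment over all probes, with a smallest adjusted p of 0.517 in limma, and 0.00% of all genes were called higher and 0.00% lower. At an unadjusted p under 0.05, 19 of the 49 were higher (38.8%), against 6.08% of all genes, and 2 were lower (4.08%), against 4.29%. These shares of all genes also stand beside the counts of genes over all 8 samples that are given below. The median log2 fold change was 0.52 over the 49 genes and -0.02 over all genes. Without SKI-606 sample 4 the count of 19 was 11, for which no share of all genes is given. Without the 3 samples of high squamous signal the count was 3, against 2.06% of all genes in that setting. The median was then 0.20, and 34 genes lay above 0, against 50.5% of all genes.

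**Figure D1:**
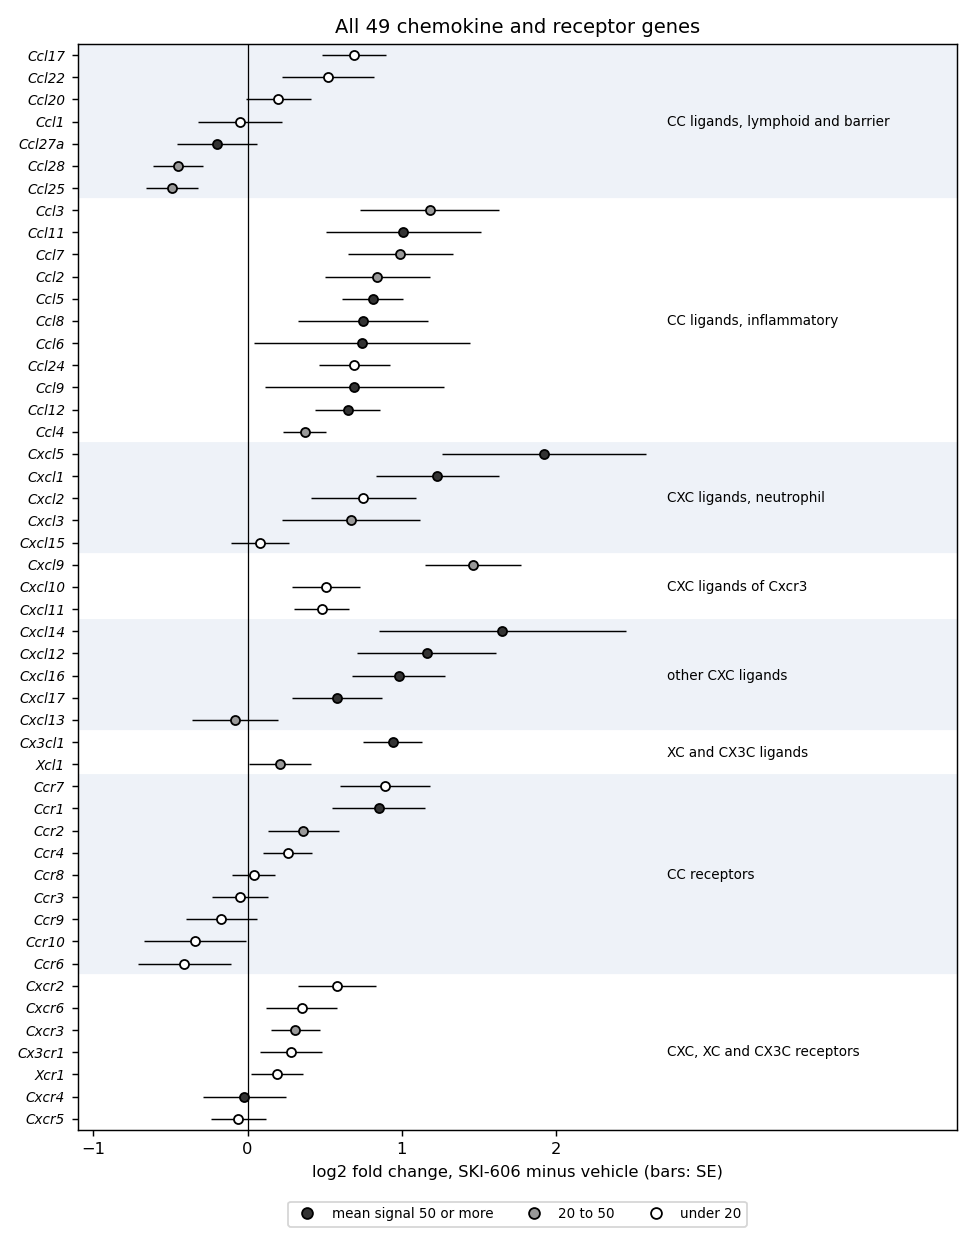
Log2 fold change of each of the 49 genes (SKI-606 minus vehicle, horizontal axis; bars are SE, 4 samples per group), ordered by role, with the shade of the point giving the mean signal. All 11 inflammatory CC ligands and all 5 neutrophil ligands lie above 0, whereas Ccl25 at -0.49 and Ccl28 at -0.45 lie lowest.

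The ligands and receptors differed in these counts. Of 33 ligands, 28 lay above 0 (84.8%) with a median of 0.69, and 16 were higher at an unadjusted p under 0.05 (48.5%). Of 16 receptors, 10 lay above 0 (62.5%) with a median of 0.22, and 3 were higher (18.8%). Over all genes, 47.2% lay above 0 and 6.08% were higher. However, 12 of the 16 receptors lay near the floor, where the scale shrinks any change, and the difference between ligands and receptors was not tested. In whole tumour RNA, more cells of a type and more RNA per cell cannot be told apart.

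**Figure D2:**
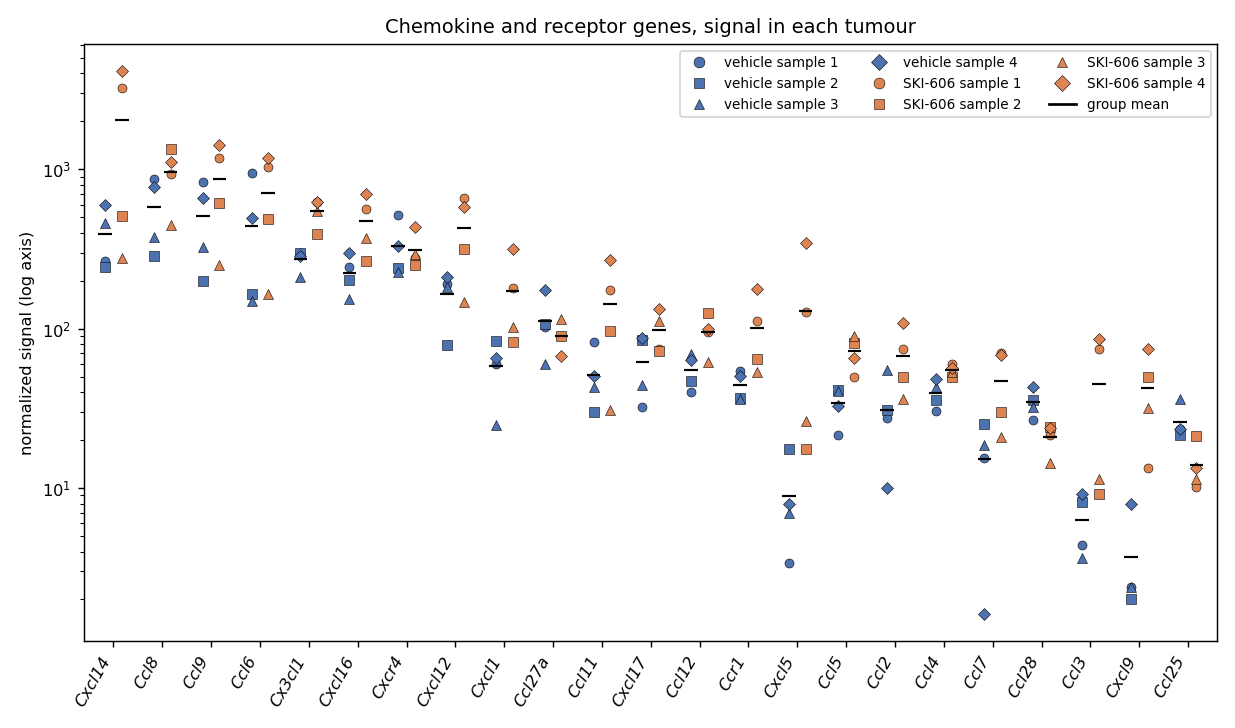
Normalized signal (vertical log axis) of the 16 measured genes and the 7 dim genes with an unadjusted p under 0.05, in each tumour; the short bars are group means and the marker shape gives the sample number. Cxcl14 reaches 3219.8 and 4129 in SKI-606 samples 1 and 4, while the 4 SKI-606 values of Cx3cl1 and Ccl5 all lie above the 4 vehicle values.

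The CC ligands that act on monocytes, macrophages, T cells and eosinophils all had higher means under SKI-606. The log2 fold changes of the 11 all lay above 0, with a median of 0.75 and a range from 0.37 to 1.18. At an unadjusted p under 0.05, 7 were higher (63.6%, against 6.08% of all genes). Ccl5, a ligand that draws T cells and monocytes and is made by T cells among others, had signals of 21.6, 41.5, 40.8 and 32.5 (vehicle) and 49.9, 81.9, 90.4 and 65.8 (SKI-606). Every SKI-606 tumour lay above every vehicle tumour, and SKI-606 samples 2 and 3 were the highest, not the samples of high squamous signal. Its log2 fold change was 0.81 ± 0.20, with an unadjusted p of 0.00266 in limma, and it was 1.11 without the 3 samples. Ccl4, which encodes a macrophage inflammatory protein, was dim and also did not overlap, with 30.5, 35.8, 43.1 and 48 in vehicle tumours, against 60, 49.9, 53.5 and 56.9 under SKI-606. The gap between the groups was small, as the highest vehicle sample stood at 48 and the lowest SKI-606 sample at 49.9, and the log2 fold change was 0.37 ± 0.14 (unadjusted p 0.0286 in limma), or 0.34 without the 3 samples. Its relative Ccl3 behaved otherwise, with 4.38, 8.12, 3.62 and 9.12 in the vehicle group and 74.1, 9.12, 11.4 and 86.1 in the SKI-606 group. SKI-606 samples 1 and 4 were far above the other 6, which lay between 3.62 and 11.4, and the log2 fold change of 1.18 ± 0.45 was 0.18 without the 3 samples.

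The monocyte attractants Ccl2, Ccl7 and Ccl12 are ligands of the receptor Ccr2. Ccl12 had signals of 39.8, 47, 68.9 and 63.2 without SKI-606 and 94.9, 126, 62.2 and 99.8 with it. SKI-606 sample 2 was the highest and SKI-606 sample 3 lay within the vehicle range, so that the groups overlapped by this 1 sample. The log2 fold change was 0.65 ± 0.21 (unadjusted p 0.0131 in limma), and 0.69 without the 3 samples. Ccl2 was dim, with 27.5, 31, 54.8 and 10 (vehicle) and 74.1, 49.9, 36.1 and 108 (SKI-606). Vehicle sample 3, at 54.8, lay above SKI-606 samples 2 and 3, and the log2 fold change was 0.84 ± 0.34 with an unadjusted p of 0.034 in limma, or 0.64 without the 3 samples. Signals of Ccl7 were 15.5, 25.2, 18.6 and 1.62 in vehicle tumours, against 70.1, 29.8, 20.8 and 68.2 under SKI-606. SKI-606 samples 1 and 4 were alike and more than all others, and the log2 fold change of 0.99 ± 0.34 was 0.53 without the 3 samples. The receptor itself, Ccr2, found on inflammatory monocytes, was dim and stood at 0.36 ± 0.23.

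Ccl6, Ccl8 and Ccl9 are made by myeloid cells, and Ccl6 and Ccl9 are rodent ligands of Ccr1. For Ccl6 the signals were 941, 165, 149.6 and 495 in the vehicle group and 1028, 488, 166 and 1178 in the SKI-606 group. High and low tumours occurred in both groups, with vehicle samples 1 and 4 and SKI-606 samples 1, 2 and 4 above the other 3. The spread within groups exceeded the difference, at 0.74 ± 0.70, and without the 3 samples the sign turned to -0.56. The same 5 tumours were high for Ccl9, with 838, 200, 327 and 659 without SKI-606 and 1179.6, 613, 252 and 1416 with it. Its log2 fold change of 0.69 ± 0.58 likewise turned, to -0.28, without the 3 samples. Ccl8 stood at 867, 286, 375 and 779.7 (vehicle) and 933, 1345, 444 and 1104 (SKI-606). SKI-606 sample 2 was highest and SKI-606 sample 3 lay between the low and the high vehicle tumours, and the log2 fold change was 0.75 ± 0.42 (unadjusted p 0.106 in limma), or 0.41 without the 3 samples. The receptor Ccr1, carried by monocytes, macrophages and neutrophils, was measured at 54.5, 36.5, 36.1 and 50.4 in vehicle tumours, against 112, 64.2, 53.5 and 176 under SKI-606. Of the SKI-606 samples, only sample 3, at 53.5, lay below the highest vehicle sample, at 54.5. Its log2 fold change came to 0.85 ± 0.30 (unadjusted p 0.0187 in limma), which was 0.25 without the 3 samples, and the other probe of Ccr1, near the floor, stood at -0.11.

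Ccl11 and Ccl24 are eotaxins, which draw eosinophils through Ccr3. Ccl11 had signals of 82.5, 30, 43.1 and 50.4 in the vehicle group and 175, 97.1, 30.8 and 271 in the SKI-606 group. SKI-606 samples 1 and 4 were highest, SKI-606 sample 2 was next, and SKI-606 sample 3 was as low as vehicle sample 2. The log2 fold change of 1.01 ± 0.50 (unadjusted p 0.0715 in limma) was 0.12 without the 3 samples. Ccl24 lay near the floor, with group means of 5 and 18.8 and a log2 fold change of 0.69 ± 0.23, or 0.46 without the 3 samples. Ccr3 was near the floor in both groups, at most 10.6 in any tumour, and stood at -0.05 ± 0.18.

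The ligands of Cxcr2, the receptor through which neutrophils are drawn, were high in the same 2 tumours. Cxcl1 had signals of 60.4, 84, 24.9 and 65.1 without SKI-606 and 180.5, 83, 103 and 318 with it. SKI-606 samples 4 and 1 were the highest in that order, sample 3 came next, and sample 2 lay just below vehicle sample 2. The log2 fold change was 1.23 ± 0.40 (unadjusted p 0.012 in limma), while the other probes of Cxcl1 stood at 0.82 ± 0.52 and 0.06 ± 0.22, and without the 3 samples the value was 0.35. Cxcl5, which is made by epithelial and other cells on inflammation, had 3.38, 17.5, 7 and 8 (vehicle) and 126, 17.5, 26.4 and 347 (SKI-606). SKI-606 samples 1 and 4 were far above all others, and SKI-606 sample 2 equalled the highest vehicle tumour. Its log2 fold change, 1.92 ± 0.66 (unadjusted p 0.0162 in limma), was 0.59 without the 3 samples. Cxcl2 and Cxcl3 were close to the floor except in SKI-606 samples 1 and 4, where they stood at 32.4 and 65.8 and at 54.1 and 69.2. Their log2 fold changes were 0.75 ± 0.34 and 0.67 ± 0.45, which without the 3 samples were 0.19 and, with the sign turned, -0.23. The receptor Cxcr2 had 3.38, 4.25, 3.62 and 4.5 in vehicle tumours, against 22.6, 7, 4.12 and 28.5 under SKI-606, and again only SKI-606 samples 1 and 4 were clear of the floor. It stood at 0.58 ± 0.25, and at 0.10 without the 3 samples. Cxcl15, a chemokine known from the lung, lay near the floor in all tumours and stood at 0.08 ± 0.19, with -0.17 ± 0.22 for its other probe.

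Of 12 neutrophil markers, 9 lay above 0, and 2 were higher and 1 lower at an unadjusted p under 0.05. Over all genes, 47.2% lay above 0, 6.08% were higher and 4.29% lower. The summed signal of the 12 markers ran from 4980.3 to 8648 in vehicle and 5089 to 18640.1 in SKI-606 samples, with none at 0. Most of that sum came from Ltf, which is also a milk protein of mammary epithelium, and S100a8, which squamous epithelium also makes. Without these genes the sum of the other 10 was 157, 167, 471 and 175 in the vehicle group and 1497, 209, 185 and 3257 in the SKI-606 group. This sum still holds S100a9, at 738 and 2208 in SKI-606 samples 1 and 4 and 179 in vehicle sample 3. Mmp9 stood at 333, 401 and 132 in these samples. Because squamous epithelium also makes S100a9, the sum is not one of neutrophil genes alone. Csf3r, the receptor for the neutrophil growth factor, was at 29.5, 28.4, 6.25 and 4.5 without SKI-606 and 139.5, 24, 41.1 and 189 with it. Its 2 highest values were those of SKI-606 samples 1 and 4, as for the ligands. Clec4d, the marker of smallest unadjusted p, stood at 1.38 ± 0.42 without overlap, and at 0.62 without the 3 samples. The markers below 0 were Elane, Mmp8 and Ngp. Elane, near the floor, was the 1 lower marker, at -0.50 ± 0.20 (unadjusted p 0.0339 in limma). Mmp8, near the floor, and Ngp, dim, stood at -0.22 ± 0.27 and -0.15 ± 0.20. S100a9, a calcium-binding protein of neutrophils that stressed squamous epithelium also makes, was at 1.12, 20.5, 179 and 6.25 (vehicle) and 738, 10.1, 13.4 and 2208 (SKI-606). It was also high in vehicle sample 3, a tumour of high squamous signal in which Cxcl5 was 7 and Cxcl1 24.9, the lowest Cxcl1 value of all. The part of neutrophils or of squamous tissue in these results was not tested.

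Cxcl1, Cxcl2, Cxcl3, Cxcl5 and Cxcl15 lie in 1 run of neighbouring protein-coding genes in the RefSeq annotation of GRCm38.p6, together with the platelet chemokine genes Ppbp and Pf4. To show what stands before the start of 3 genes of this run that were high in the same tumours, the 250 bases upstream of each are given from RefSeq (GRCm38.p6), 5′ to 3′ on the gene's strand, with matches to the NF-kB consensus and to TATAAA in capitals.
Cxcl1 upstream, chr5:90890995-90891244 (+ strand): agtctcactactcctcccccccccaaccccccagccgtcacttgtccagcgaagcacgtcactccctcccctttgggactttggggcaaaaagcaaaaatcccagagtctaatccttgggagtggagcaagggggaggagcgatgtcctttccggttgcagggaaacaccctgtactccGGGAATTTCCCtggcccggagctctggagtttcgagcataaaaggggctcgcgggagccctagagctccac
Cxcl2 upstream, chr5:90903649-90903898 (+ strand): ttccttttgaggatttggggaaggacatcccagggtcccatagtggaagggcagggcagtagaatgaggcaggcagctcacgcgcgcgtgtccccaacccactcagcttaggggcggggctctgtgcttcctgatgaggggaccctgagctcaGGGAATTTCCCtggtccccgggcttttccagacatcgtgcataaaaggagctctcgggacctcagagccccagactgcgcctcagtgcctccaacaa
Cxcl3 upstream, chr5:90785851-90786100 (+ strand): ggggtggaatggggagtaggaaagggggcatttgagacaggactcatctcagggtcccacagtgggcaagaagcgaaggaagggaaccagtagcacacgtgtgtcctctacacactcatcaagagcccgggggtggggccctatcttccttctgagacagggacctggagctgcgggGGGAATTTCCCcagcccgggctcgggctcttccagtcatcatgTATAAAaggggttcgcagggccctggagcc
In each of the 3 windows a stretch of 11 bases holds 2 overlapping matches to the NF-kB consensus, 1 for each strand, from base 71 to 61 before the start in Cxcl1, 97 to 87 in Cxcl2 and 73 to 63 in Cxcl3. The capitals TATAAA stand at bases 30 to 25 in Cxcl3 alone of the 3. Over all genes with such a window, 8.23% had a match to the NF-kB consensus on either strand. Of 36 chemokine and receptor genes with a window, 10 did (27.8%), namely Ccl1, Ccl9, Ccl20, Ccr1, Ccr3, Ccr6, Cxcl1, Cxcl2, Cxcl3 and Cxcl10. Cxcl5, of the same run and also high in SKI-606 samples 1 and 4, is not shown and is not among these 10. Its absence can mean no match or no window, so the 3 windows do not stand for the whole run. A match describes the letters and does not show that a factor binds there.

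Cxcl9, Cxcl10 and Cxcl11 are induced by interferon gamma and draw T cells through Cxcr3. All 3 lay above 0, and all 3 had an unadjusted p under 0.05 in limma. Cxcl9 had signals of 2.38, 2, 2.38 and 8 in vehicle tumours, against 13.4, 49.9, 31.6 and 74.1 under SKI-606. The vehicle tumours lay at the floor and every SKI-606 tumour lay above them, with SKI-606 sample 4 highest and sample 1 lowest. The log2 fold change of 1.46 ± 0.31 (unadjusted p 8.91e-04 in limma) was 1.49 without the 3 samples, and a second, weaker probe stood at 0.46 ± 0.24. Cxcl10 lay near the floor, at 1.12, 20.5, 10.6 and 10 in the vehicle group and 14.5, 19.5, 25.2 and 23.9 in the SKI-606 group. Vehicle sample 2 was within the SKI-606 range, and the log2 fold change was 0.51 ± 0.22, or 0.60 without the 3 samples. Cxcl11 also lay near the floor, with a log2 fold change of 0.48 ± 0.18 for the chosen probe and -0.58 ± 0.16 for the other, so that its direction depends on the probe. Interferon gamma itself, Ifng, named here after its values were seen, lay at the floor, with at most 10.2 in any tumour, and stood at -0.02 ± 0.19.

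The receptor Cxcr3, of activated T cells, was dim, at 33.4, 29, 19.6 and 39.5 without SKI-606 and 42.1, 40.5, 37.1 and 43.9 with it. The SKI-606 tumours lay close together at the upper end, and vehicle sample 4, at 39.5, lay among them, and the log2 fold change was 0.31 ± 0.16, or 0.14 without the 3 samples. Where 47.2% of all genes lay above 0, all 16 markers of T and NK cells did. Without the 3 samples the fold changes of these markers ran from -0.26 for Thy1 to 0.92 for Gzma. The summed signal of the 16 markers was 495 to 672 in vehicle and 687 to 1507 in SKI-606 samples, with none at 0. Thy1, which fibroblasts also carry, made up much of it, and without Thy1 the sum was 175 to 304 in vehicle and 397 to 509 in SKI-606 samples, so that the groups did not overlap either way. The defining T cell markers were dim or near the floor. Cd3g stood at 7, 14.4, 4.88 and 14.5 (vehicle) and 25.5, 22.2, 22 and 30.9 (SKI-606), with no overlap and a log2 fold change of 0.67 ± 0.17. Cd3e overlapped, at 4.38, 52.6, 12.4 and 5.5 in vehicle tumours, against 43.1, 26.8, 20.8 and 35 under SKI-606. Gzmb, a protease of cytotoxic cells, stood at 0.99 ± 0.24 and Cd5, of T cells, at 0.78 ± 0.17. The part of T and NK cells in the difference of Cxcl9 and Ccl5 was not tested. The upstream windows of Cxcl9 and Cxcl10 are shown for comparison with those of the neutrophil ligands, in the same form, with the core of the interferon-stimulated response element (GAAA, any 2 bases, GAAA, searched on both strands) also in capitals.
Cxcl9 upstream, chr5:92328080-92328329 (- strand): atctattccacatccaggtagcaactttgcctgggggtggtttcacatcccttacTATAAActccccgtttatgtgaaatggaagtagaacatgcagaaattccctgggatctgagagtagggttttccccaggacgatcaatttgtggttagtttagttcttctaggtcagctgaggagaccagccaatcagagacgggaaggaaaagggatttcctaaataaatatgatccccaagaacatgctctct
Cxcl10 upstream, chr5:92348890-92349139 (- strand): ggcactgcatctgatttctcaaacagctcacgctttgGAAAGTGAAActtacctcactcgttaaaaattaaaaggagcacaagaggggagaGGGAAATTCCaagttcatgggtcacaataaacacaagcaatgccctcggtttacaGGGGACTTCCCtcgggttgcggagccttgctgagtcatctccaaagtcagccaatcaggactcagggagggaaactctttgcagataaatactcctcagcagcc
In Cxcl10, capitals mark the interferon response element core at bases 213 to 204 before the start and the NF-kB consensus at 159 to 150 and, in 2 overlapping matches, at 104 to 94. In Cxcl9, capitals mark only TATAAA at bases 195 to 190. That core was found in 3.46% of all genes with a window and in 2 of 36 family genes, Cxcl10 and Cxcl14. TTCNNNGAA, also searched on both strands, was found in 8.13% of all genes and in 3 of the 36, Ccl17, Ccr6 and Cxcl14, and TATAAA on the gene's strand in 8.94% of all genes and 10 of the 36.

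Of the other CXC ligands, 4 of 5 lay above 0, with a median of 0.98. Cxcl14, made mainly by epithelium such as that of skin, had 266, 244, 458 and 598 in the vehicle group and 3219.8, 509.5, 278 and 4129 in the SKI-606 group. SKI-606 samples 1 and 4 were far above the rest, and SKI-606 samples 2 and 3 lay within the vehicle range. The log2 fold change of 1.65 ± 0.80 (unadjusted p 0.0665 in limma) was 0.14 without the 3 samples, and a second probe of Cxcl14 stood at 1.83 ± 0.86. Vehicle sample 3, whose squamous sum was also high, had 458, and vehicle sample 4 had 598. The part of squamous tissue was not tested. Cxcl12, made by fibroblasts and endothelium, had 191, 78.6, 183 and 209.8 without SKI-606 and 660.2, 314, 148 and 579 with it. SKI-606 samples 1, 4 and 2 lay above all vehicle tumours, whereas sample 3 lay below 3 of them. This gave a log2 fold change of 1.16 ± 0.45 (unadjusted p 0.0293 in limma), 0.50 without the 3 samples, and 0.38 ± 0.26 and 0.09 ± 0.18 for the other 2 probes. The 12 fibroblast markers all lay above 0, where 47.2% of all genes did. Without the 3 samples the fold changes of these markers ran from -0.23 for Mfap5 to 0.85 for Fbln1. The sum of these markers ran from 12991 to 17039 in vehicle and 17419.7 to 31106 in SKI-606 samples, with none at 0. It was highest in SKI-606 samples 1 and 4 and lowest, among the SKI-606 tumours, in sample 3, as was Cxcl12, and the part of fibroblasts was not tested.

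Cxcr4, the receptor of Cxcl12 on leukocytes and tumour cells, was measured and did not differ by more than its spread. Its signals were 519, 242, 226 and 329 (vehicle) and 276, 252, 294 and 432 (SKI-606). Vehicle sample 1 was highest, and the other 7 tumours lay between 226 and 432. The log2 fold change was -0.02 ± 0.27, with a 95% interval from -0.62 to 0.58, and it turned to 0.23 when arrays were scaled to the same median. Ackr3, the atypical receptor that takes up Cxcl12, was at 279.5, 222, 213 and 228 in vehicle tumours, against 492, 336, 283 and 688 under SKI-606. All SKI-606 tumours lay above all vehicle tumours, with samples 4 and 1 highest, and the log2 fold change was 0.81 ± 0.26 (unadjusted p 0.0102 in limma), or 0.33 without the 3 samples.

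Cxcl16, a membrane-bound ligand of Cxcr6 that also takes up oxidized lipids, had signals of 242, 201, 154 and 300.4 in the vehicle group and 564, 267, 369 and 705 in the SKI-606 group. SKI-606 samples 4, 1 and 3 lay above all vehicle tumours, and SKI-606 sample 2 fell within their range. Its log2 fold change came to 0.98 ± 0.30 (unadjusted p 0.00974 in limma), a second probe stood at 0.73 ± 0.29, and without the 3 samples the value was 0.34. Its receptor Cxcr6, of T and NK cells, lay near the floor and stood at 0.35 ± 0.23. Cxcl17, a chemokine of mucosal surfaces, had 32.4, 85, 44.4 and 86.9 without SKI-606 and 74.1, 72.2, 112 and 133 with it. The groups overlapped, since vehicle samples 2 and 4 lay above SKI-606 samples 1 and 2, and the log2 fold change was 0.58 ± 0.29, or 0.42 without them. Cxcl13, which draws B cells, was dim and stood at -0.08 ± 0.28, while a second dim probe stood at 0.40 ± 0.26, so that the sign depends on the probe. Its receptor Cxcr5, near the floor, stood at -0.06 ± 0.18.

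Cx3cl1, or fractalkine, a membrane-bound ligand of endothelium and epithelium that draws monocytes through Cx3cr1, had the smallest unadjusted p of the family. Its signals were 300.4, 299.6, 211 and 286 (vehicle) and 620.5, 391, 549 and 626 (SKI-606). Every SKI-606 tumour lay above every vehicle tumour. SKI-606 samples 4 and 1 were highest, as for many ligands above, and sample 3 was close to them. On the log2 scale the difference was 0.94 ± 0.19, with an unadjusted p of 6.46e-04 and an adjusted p of 0.517 in limma, and it was 0.62 without the 3 samples. A second measured probe of Cx3cl1 gave 1.01 ± 0.28, while its other 2 probes lay near the floor. The upstream window is printed because the gene had the smallest unadjusted p, with TATAAA in capitals.
Cx3cl1 upstream, chr8:94771930-94772179 (+ strand): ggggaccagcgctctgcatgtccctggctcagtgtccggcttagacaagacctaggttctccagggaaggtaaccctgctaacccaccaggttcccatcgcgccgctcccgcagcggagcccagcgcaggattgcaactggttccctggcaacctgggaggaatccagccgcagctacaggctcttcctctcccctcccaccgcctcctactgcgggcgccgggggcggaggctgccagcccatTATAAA
The window holds TATAAA in its last 6 bases and no match to the NF-kB consensus, TTCNNNGAA or the interferon response element core. The receptor Cx3cr1 lay near the floor, at 3.38, 7, 15.5 and 4.5 in vehicle tumours, against 7, 11.4, 11.4 and 20.6 under SKI-606. The groups overlapped and it stood at 0.28 ± 0.20. Xcl1, a ligand made by T and NK cells, was dim and stood at 0.21 ± 0.20, and its receptor Xcr1, of cross-presenting dendritic cells, lay near the floor at 0.19 ± 0.17.

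Of the 49 genes, 4 had all SKI-606 tumours above all vehicle tumours (8.16%, against 2.40% of all genes), namely Ccl4, Ccl5, Cx3cl1 and Cxcl9. The reverse held for 2 genes (4.08%, against 2.03%), Ccl25 and Ccl28.

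The CC ligands of lymphoid homing and barrier tissues held the only genes lower at an unadjusted p under 0.05, and 3 of these 7 lay above 0. Ccl28, a ligand of mucosal and mammary epithelium that binds Ccr10, was dim at 26.6, 35.8, 32.4 and 43.2 in the vehicle group and 21.5, 24, 14.4 and 23.9 in the SKI-606 group. All SKI-606 tumours lay below all vehicle tumours, though by a narrow gap, and SKI-606 sample 3 was lowest. This gave a log2 fold change of -0.45 ± 0.16 (unadjusted p 0.0173 in limma), -0.54 without the 3 samples, and -0.12 and 0.13 for its other probes, both near the floor. Ccl25, known from thymus and gut as the ligand of Ccr9, was dim at 23.6, 21.4, 36.1 and 23.5 without SKI-606 and 10.2, 21.2, 11.4 and 13.4 with it. SKI-606 sample 2 lay just under the lowest vehicle tumour, and the log2 fold change was -0.49 ± 0.17 (unadjusted p 0.0162 in limma), with -0.13 ± 0.29 for its other probe. Without the 3 samples Ccl25 stood at -0.28, with an unadjusted p of 0.197 in limma, which ends the unadjusted call. Ccl27a, a skin ligand of Ccr10, was measured at 103, 107, 60.4 and 176 (vehicle) and 89.8, 89.8, 114 and 67.5 (SKI-606). Vehicle sample 4 was highest and vehicle sample 3 lowest, so that the SKI-606 tumours lay within the vehicle range, and the log2 fold change was -0.20 ± 0.26, which turned to 0.03 when arrays were scaled to the same median. Ccr9 and Ccr10 lay near the floor and stood at -0.17 ± 0.23 and -0.34 ± 0.33.

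The remaining genes of that group lay near the floor. Ccl17 and Ccl22, ligands of Ccr4 made by dendritic cells and macrophages, stood at 0.69 ± 0.21 and 0.52 ± 0.30, and without the 3 samples at 0.33 and 0.20. For Ccl17 the signals were 15.5, 8.12, 2.38 and 10.4 in vehicle tumours, against 29.5, 22.2, 14.4 and 31.5 under SKI-606, and only SKI-606 sample 3, at 14.4, lay below the highest vehicle tumour. Ccr4, of T helper and regulatory T cells, stood at 0.26 ± 0.16. Ccl20 stood at 0.20 ± 0.21 and its receptor Ccr6 at -0.41 ± 0.30, and Ccl1 stood at -0.05 ± 0.27 and its receptor Ccr8 at 0.04 ± 0.14. Ccr7, which leads mature dendritic cells and T cells to lymph nodes, had 13.4, 4.25, 1.12 and 2.5 in the vehicle group and 28.5, 23.2, 6.12 and 41.4 in the SKI-606 group. It was at the floor in vehicle samples 2 to 4 and clear of it in SKI-606 samples 1, 2 and 4, and the log2 fold change was 0.89 ± 0.29 (unadjusted p 0.0128 in limma), or 0.41 without the 3 samples. Of 11 dendritic cell markers, 1 of them Ccl22 itself, 10 lay above 0 and their sum ran from 3924 to 7131 in vehicle and 9964 to 17367 in SKI-606 samples, without overlap. Most of that sum came from the MHC class II genes Cd74, H2-Aa and H2-Ab1, which macrophages and B cells carry too, and which stood at 1.12 ± 0.19, 1.35 ± 0.27 and 1.28 ± 0.35. Of the other dendritic cell markers, Flt3 and Zbtb46 stood at 0.27 ± 0.23 and 0.03 ± 0.19. Itgax stood at 1.10 ± 0.39, with all SKI-606 tumours above all vehicle tumours, and at 0.21 without the 3 samples. Fscn1 and Clec10a stood at 0.94 ± 0.36 and 0.99 ± 0.53, and at 0.36 and 0.23 without them. Batf3 lay below 0, at -0.28 ± 0.23. The part of dendritic cells in the values of Ccl17 and Ccr7 was not tested.

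**Figure D3:**
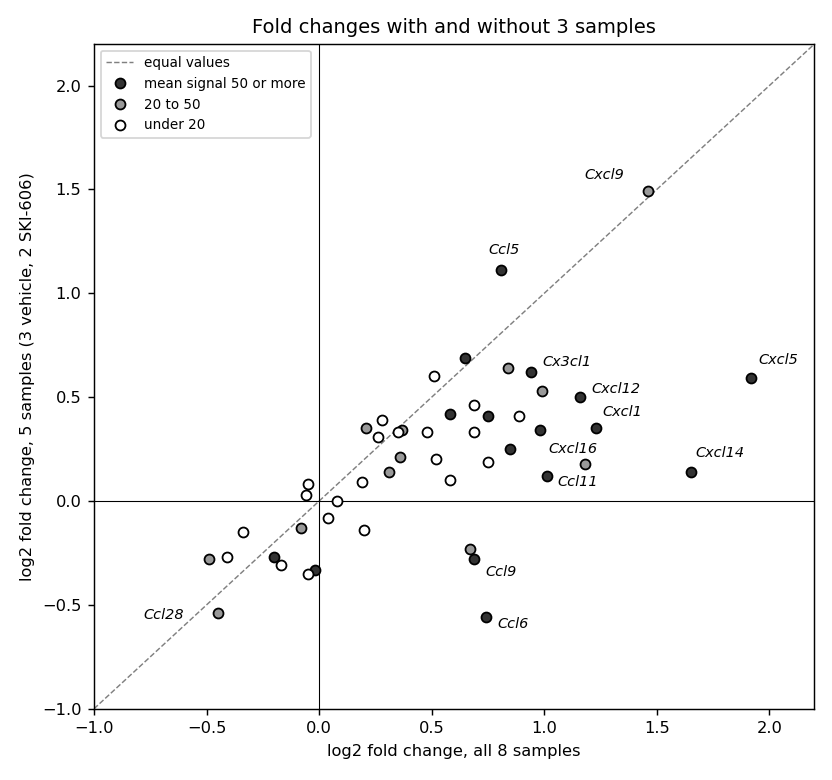
Log2 fold change of each of the 49 genes in all 8 tumours (horizontal axis) and without vehicle sample 3 and SKI-606 samples 1 and 4 (vertical axis, 3 against 2 samples); the dashed line marks equal values. Ccl5, Cxcl9 and Cx3cl1 keep values of 1.11, 1.49 and 0.62, while Cxcl14 comes to 0.14 and Ccl6 to -0.56.

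Without the 3 samples of high squamous signal, 3 genes had an unadjusted p under 0.05 in limma, all of them higher. They were Cxcl9 at 1.49, Ccl5 at 1.11 and Cx3cl1 at 0.62. In that setting 34 of 49 genes lay above 0, against 50.5% of all genes, and 0 were lower, against 1.87%. In these 5 tumours Cxcl5 stood at 0.59, Cxcl12 at 0.50 and Ccl28 at -0.54. Ccl6, Ccl9, Cxcl3 and Ccl20, above 0 over all 8 tumours, lay below 0 in these, at -0.56, -0.28, -0.23 and -0.14. Ccr8 and Cxcl15, near the floor, also turned, from 0.04 to -0.08 and from 0.08 to -0.0. The other way, Ccr3 and Cxcr5, near the floor, turned from -0.05 to 0.08 and from -0.06 to 0.03. Because SKI-606 samples 1 and 4 held the highest values of many of these genes, leaving them out has to weaken those differences.

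The 15 macrophage markers all had fold changes above 0, where 47.2% of all genes did. Of the 15, 6 were higher at an unadjusted p under 0.05, as were 6.08% of all genes. With no signal at 0, the sum of these markers ran from 7239.7 to 13999.5 in vehicle and 11475 to 27383 in SKI-606 samples. Csf1r, the macrophage growth factor receptor, stood at 1704, 1371, 1482 and 1742 without SKI-606 and 2715, 2061, 2174 and 3592 with it. Both the macrophage sum and Csf1r were highest in SKI-606 sample 4. The summed signal of the 11 inflammatory CC ligands was 2873, 876, 1126 and 2155 (vehicle) and 3753, 2914, 1174 and 4483 (SKI-606). This sum, most of it from Ccl6, Ccl8 and Ccl9, was lowest in vehicle sample 2, and SKI-606 sample 3 differed little from vehicle sample 3. The 9 B and plasma cell markers had 5 members above 0, with sums from 101 to 204 in vehicle and 177 to 197 in SKI-606 samples. The 14 endothelial markers, 12 of them above 0, ran from 668 to 1763 in vehicle and 891 to 2056 in SKI-606 samples. The adipocyte sum was 1774.5, 347, 458 and 2009.9 in vehicle and 1013, 5267, 354 and 1480 in SKI-606 samples. It was highest in vehicle samples 1 and 4 and SKI-606 samples 1, 2 and 4, the tumours high for Ccl6 and Ccl9. The dim red blood cell sum ran from 69.4 to 104 in vehicle and 29.6 to 77 in SKI-606 samples. The part of these cells in the chemokine results was not tested.

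**Figure D4:**
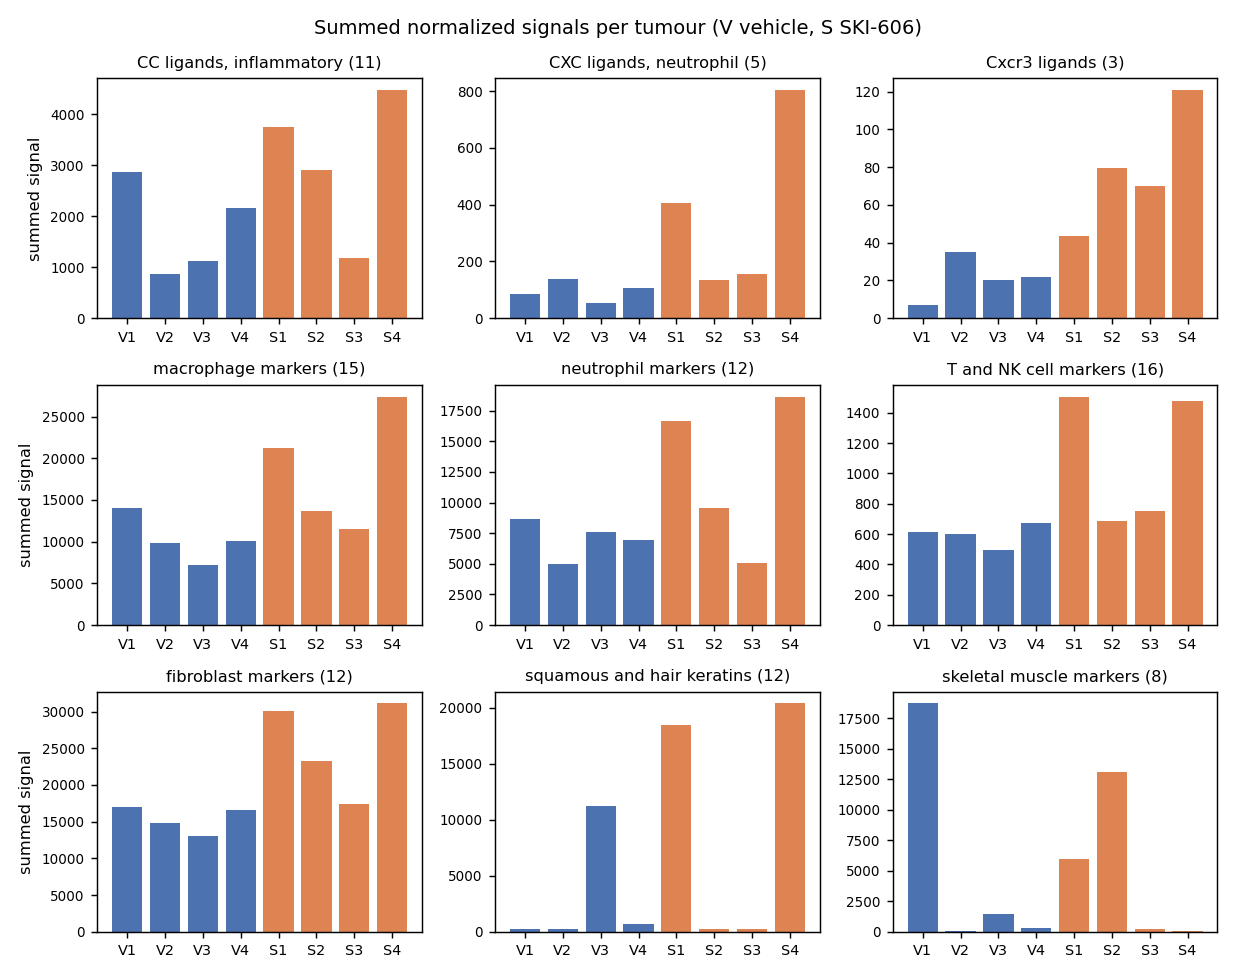
Summed normalized signal of 3 groups of chemokine genes (top row) and of 6 lists of cell type markers in each tumour (bars; V vehicle, S SKI-606, sample number after the letter; number of genes in brackets). The neutrophil ligands and the squamous keratins are both highest in S1 and S4. V3 stands at 11271 for the keratins and at 53.8, the lowest sum, for the neutrophil ligands. The part of squamous tissue was not tested.

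Genes that act around the family were read from 3 further lists. Among inducers of chemokine genes, 16 of 21 lay above 0, 7 were higher and 0 lower at an unadjusted p under 0.05, and 0 passed after adjustment. Over all genes, 47.2% lay above 0, 6.08% were higher and 4.29% lower. Ltb, which encodes lymphotoxin beta, had signals of 14.5, 22.4, 7.88 and 35.2 in vehicle tumours, against 131, 57.8, 53.5 and 126 under SKI-606. Every SKI-606 tumour lay above every vehicle tumour, and the log2 fold change was 1.56 ± 0.32 (unadjusted p 7.41e-04 in limma), or 0.87 without the 3 samples. Relb and Nfkb2, the NF-kB subunits that act downstream of lymphotoxin, stood at 0.94 ± 0.24 and 0.99 ± 0.27, and at 0.52 and 0.41 without the 3 samples. Relb had 56.5, 71, 55.9 and 103 in the vehicle group and 185, 107, 122 and 201 in the SKI-606 group, again without overlap. Csf1, the macrophage growth factor, stood at 0.80 ± 0.17, and at 0.67 without them. Among atypical receptors and chemokines outside the numbered symbols, 10 of 11 lay above 0 and 1, Ackr3, was higher at an unadjusted p under 0.05. Ccrl2, which binds chemerin, stood at 0.61 ± 0.29, Cmklr1, the chemerin receptor, at 0.50 ± 0.25, and the platelet chemokine gene Ppbp, near the floor, at 0.36 ± 0.18.

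Of 26 genes of signalling below the receptors, 20 lay above 0 and 6 were higher at an unadjusted p under 0.05, with 0 lower and 0 past adjustment. The shares of all genes were 47.2% above 0, 6.08% higher and 4.29% lower. Arrb1 and Arrb2 encode the beta-arrestins, which uncouple and internalize chemokine receptors, and stood at 1.04 ± 0.23 and 0.58 ± 0.20. Arrb1 had signals of 156, 112, 164 and 246 without SKI-606 and 407, 319, 279 and 426 with it. All SKI-606 tumours lay above all vehicle tumours (unadjusted p 0.00126 in limma), and without the 3 samples Arrb1 stood at 0.81 and Arrb2 at 0.19. Plcb3, a phospholipase activated by G proteins, stood at 0.44 ± 0.13, and Rac2, a GTPase of leukocyte movement, at 0.89 ± 0.34, with 0.34 and 0.15 without the 3 samples.

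By position, neighbouring family genes mostly shared a sign. In the RefSeq annotation, Ccl5, Ccl9, Ccl6, Ccl3 and Ccl4 follow each other without another protein-coding gene between them, and all 5 lay above 0, from 0.37 to 1.18. Likewise Ccl2, Ccl7, Ccl11, Ccl12, Ccl8 and Ccl1 form a run in which 5 of 6 lay above 0, Ccl1 being at -0.05. In the run of Cxcl5, Cxcl3, Cxcl15, Cxcl1 and Cxcl2 all 5 lay above 0, from 0.08 to 1.92. However, Cxcl3 and Cxcl15 did not without the 3 samples, and Cxcl15 did not by its other probe. Ccl22, Cx3cl1 and Ccl17 form a further run and stood between 0.52 and 0.94. Since 38 of the 49 genes lay above 0, a shared sign in a run is common here, and no test was made of it. Of the 18 genes with several probes, the probes had 1 sign in 12, and 58 of all 77 probes lay above 0.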

How the data were processed

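The 8 samples were grouped by their titles, 4 vehicle and 4 SKI-606. The deposited values are linear ratios, and no label or file header used here names the software or normalization behind them. Per the values, 26196 of 45101 probes (58.08%) had a median ratio of 1 over the arrays within 0.0001, as division by each array's median and then by the probe's median over arrays gives. Whole-number signals were recovered from the ratios, and gave back 45101 probes (100.0%) within a relative 0.0001. On 5000 simulated probes 99.64% were recovered exactly, so a few may be off by a common factor. Signals were quantile normalized, 16 was added and log2 taken. All 45037 probes, after 64 control probes were left out, were tested with limma 3.58.1 (R 4.3.3, lmFit and eBayes) and Benjamini-Hochberg adjustment at 0.05. On simulated data with 45037 probes and normal noise, 33 of 100 changes of 1 and 89 of 100 changes of 2 on the log2 scale were called. False calls numbered 4. The changed probes were drawn from bright probes only, so these rates do not hold for genes that are dim or near the floor. Names came from the platform annotation (34945 probes with 1 symbol, 932 with several), and a gene is its probe with the highest mean. Of the 49 symbols, 48 are in RefSeq's table of protein-coding genes of GRCm38.p6. All measured genes and dim genes with an unadjusted p under 0.05 are given in full. From the other lists only some genes are named, and no single rule chose them. The gene choice and all lists were made with earlier results of these data known. Alternatives were other pseudocounts, scalings, probe rules, array weights, a filter on dim probes, the replicate block and left-out samples. Upstream windows came from RefSeq's promoter table of GRCm38.p6 (32851 windows of 27025 genes). Coordinates are 1-based.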

Additional observations from a re-analysis of the deposited data

Results flagged for a closer look

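In 46 groups of 4 values (23 genes, both groups), 3 held a sample whose gap to its nearest neighbour took up more than the 95% limit of Dixon's test for 4 values on the log2 scale. Chance marks about 1 group in 20. Cx3cl1 was lowest in vehicle sample 3, at a signal of 211, while the other vehicle tumours lay between 286 and 300.4. Cxcl12 was lowest in vehicle sample 2, at 78.6, while the others lay between 183 and 209.8. Cxcl9 was highest in vehicle sample 4, at 8, a value at the floor, as were the other 3.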

How the results depend on the processing

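Over the alternatives tried, 0 genes of the family passed an adjusted p of 0.05 in limma, with a smallest adjusted p of 0.278. Of 407 values of the 23 genes given in full, 395 kept their sign and 12 did not, and 19 genes never turned. Cxcr4 turned to 0.003 with no further normalization, 0.23 with arrays scaled to the same median and 0.25 on log2 values of the ratios as deposited, and Ccl27a to 0.03 and 0.05 in the last 2. These last 2 settings moved the median of all genes from -0.02 to 0.10 and 0.16. Leaving out 1 sample, Cxcr4 ranged from -0.18 to 0.22 and Ccl27a from -0.43 to 0.02. Without the 3 samples of high squamous signal Ccl6 was -0.56 and Ccl9 -0.28, the genes higher at an unadjusted p under 0.05 fell to 3, those lower to 0, and the median to 0.20. The median was 0.77 with a pseudocount of 1, 0.21 with 64, and 1.0 on the deposited ratios. With genes of mean signal at least 50 alone, which leaves 16, 14 lay above 0, 8 were higher, 0 lower, and the median was 0.83; since Cxcl5, Ccl5 and Ccr1 reach that mean through their SKI-606 samples, this is no check. The genes lower numbered 1 with arrays scaled to the same median, against 1.54% of all genes. They numbered 1 on the deposited ratios, against 1.63%, and 0 with the mean of all probes. Leaving out 1 sample gave 11 to 25 higher, 1 to 3 lower, 38 to 41 above 0 and medians from 0.37 to 0.54. With the replicate number as a block, 20 were higher and 2 lower, with a median of 0.52. Shares of all genes are not given for single left-out samples, the block, the filter or the mean of all probes. The counts in those settings are therefore not read against all genes. The replicate numbers share no source in the labels. Same-numbered samples correlated from -0.151 to 0.108, with 0 of 4 SKI-606 samples closest to the vehicle sample of their number.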

Other observations

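SKI-606 sample 4 held the highest value of 26 of the 49 genes. SKI-606 samples 1 and 4 both lay above the other 6 tumours in 23 of the 49 genes (46.9%), against 2019 of 18193 genes (11.1%). These samples were known to stand apart before the count was made, and it is a description with no test. The 2 probes of Cxcl11 went opposite ways. The chosen probe stood at 0.48 ± 0.18 and the other at -0.58 ± 0.16, both near the floor, with unadjusted p of 0.0243 and 0.0044 in limma, so that no direction can be given for this gene.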
